A study of Mus musculus with 11 samples.

Results

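The acetylcholine receptor genes of stellate ganglion neurons are described here across clusters, sets and single cells. The members are 8 genes taken by name: the nicotinic subunit genes Chrna3, Chrna4, Chrna5, Chrna7, Chrnb2 and Chrnb4, and the muscarinic receptor genes Chrm1 and Chrm2. All 8 were among the 19444 genes of the expression table. The stellate ganglion, which lies low in the neck, holds sympathetic neurons of the forelimb and upper trunk. It was taken from 6 male mice aged 6 to 8 weeks, whose genotype is given as C57BL/6J with no further allele, with CTB-488, a tracer carried back along axons, in the forelimb and CTB-555 in interscapular brown fat. All groups below come from animals given both tracers 3 days earlier, and which tracer a cell carried was not analysed here. Each of the 3 sets, which are the replicates, combined the ganglia of 2 animals, and single cells were sorted into 11 plates and sequenced from transcript 3′ ends.

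Preganglionic axons release acetylcholine onto sympathetic neurons. Fast transmission there runs through nicotinic receptors, pentameric cation channels in which the α3 and β4 subunits form the main ganglionic type, with α5 or β2 as further subunits and α7 able to form channels of its own. Slow transmission runs through muscarinic receptors, which act through G proteins: M1 couples to Gq, phospholipase C and closure of M-type potassium channels, and M2 couples to Gi/o, adenylyl cyclase and inwardly rectifying potassium channels.

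Of 1039 sorted cells that the study states, the table holds 878, each with 1 of the authors' 4 cluster numbers. Cluster 4 (54 cells, median 35488.5 counts per cell) had the cholinergic markers Slc18a3, Slc5a7, Chat and Vip at a summed 58.2 to 64.6 counts per 10000 over the sets, against at most 0.391 in clusters 1 and 2. Cluster 3 was split at 10000 counts per cell into 48 high-count cells (median 68058) and 53 low-count cells (median 2658). Cluster 1 held 388 cells (median 28396) and cluster 2 held 335 (median 40121), and both had summed noradrenergic markers of 87.0 to 126 counts per 10000. Neuron markers, of which 5 of 6 were analysed here, summed to 66.5 to 80.4 in these 4 classes of neuron, and to 5.18 to 37.7 in the low-count cells, where endothelial, fibroblast or mural markers were high. Glial markers stood at 21.1 to 43.0 in cluster 4, 11.8 to 15.9 in high-count cluster 3, 11.8 to 14.4 in cluster 1 and 13.8 to 23.4 in cluster 2. The clusters were drawn by the authors on these same cells, by a method that the labels do not describe beyond Seurat, so a receptor's own values may have entered them, and a p-value below says only how a difference repeated over 3 pools of ganglia. Levels are mean counts per 10000 counts of a cell, averaged over the cells of a class within a set. They count transcript ends and are not scaled to length, so an order between genes also holds any difference in capture.

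Chrna5, Chrna3 and Chrnb4 lie side by side on mouse chromosome 9 within 67900 bases. In GRCm38, Chrna5 takes chr9:54980880-55007779 on the plus strand, Chrna3 takes chr9:55010111-55026562 and Chrnb4 takes chr9:55028154-55048779, both on the minus strand. Chrna5 and Chrna3 end 2331 bases apart, tail to tail, and 1591 bases part Chrna3 from the end of Chrnb4. Chrnb2 is at chr3:89746195-89764632 (minus), Chrna7 at chr7:63098692-63212569 (minus), Chrna4 at chr2:181018380-181043546 (minus), Chrm1 at chr19:8663789-8683587 (plus) and Chrm2 at chr6:36388084-36528414 (plus). Exons of Chrnb2 overlap exons of Adar on the other strand, and the strand setting of the counting is not stated in the labels. Adar had 79 counts in the 777 neurons of clusters 1, 2 and 4, against 783 for Chrnb2.

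The 250 bases before the start are shown for Chrna3 and Chrna5, neighbours in the gene cluster whose levels are set side by side below, and for Chrm2, the member that differed most between clusters 1 and 2. For Chrnb4 only 30 bases around a motif are shown, because the GENCODE annotation places 235 of the 250 bases within an exon. Sequences are from RefSeq, build GRCm38.p6, read on the gene's own strand, and 7 of the 8 members matched by symbol. Capitals mark GGGCGG on either strand, the GC box bound by Sp1-family factors, or CAGCTG, an E-box bound by basic helix-loop-helix factors. The motifs do not overlap each other.
Chrna3 (chr9:55026563-55026812, minus): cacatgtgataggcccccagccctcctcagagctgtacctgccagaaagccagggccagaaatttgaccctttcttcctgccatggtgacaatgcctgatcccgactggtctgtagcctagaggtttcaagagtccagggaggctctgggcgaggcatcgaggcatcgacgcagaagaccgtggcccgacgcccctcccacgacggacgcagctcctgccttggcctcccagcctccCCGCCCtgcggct
Chrnb4 (chr9:55048545-55048574, minus): ggcacagagagactgcCAGCTGggacagac
Chrna5 (chr9:54980630-54980879, plus): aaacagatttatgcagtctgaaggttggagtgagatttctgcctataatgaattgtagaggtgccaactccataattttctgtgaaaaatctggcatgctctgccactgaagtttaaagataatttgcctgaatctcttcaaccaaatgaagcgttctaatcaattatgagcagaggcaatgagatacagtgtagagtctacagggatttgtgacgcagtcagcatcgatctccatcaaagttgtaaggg
Chrm2 (chr6:36387834-36388083, plus): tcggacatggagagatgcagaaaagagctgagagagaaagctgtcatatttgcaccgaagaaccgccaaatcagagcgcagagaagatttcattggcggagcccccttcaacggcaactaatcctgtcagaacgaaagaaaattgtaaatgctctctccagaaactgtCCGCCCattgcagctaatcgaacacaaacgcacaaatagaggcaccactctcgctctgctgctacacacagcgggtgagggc
The Chrna3 window held 1 GC box, which ended 7 bases before the start. The Chrnb4 window held 1 CAGCTG, which ended 8 bases before it. The first Chrna5 window held neither and was 40.0% G or C, while a second RefSeq start of Chrna5 had 4 GC boxes and 65.2% G or C. The Chrm2 window held 1 GC box, 76 bases before the start. Of 32851 windows of this length, 32.7% held GGGCGG and 13.0% held CAGCTG, so these matches only describe the letters.

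The nicotinic subunits of the ganglionic type were near ubiquitous in the neurons. Chrna3, the α3 subunit, had at least 1 count in 775 of 777 neurons of clusters 1, 2 and 4 and averaged 5.23 counts per 10000, rank 315 of the 19444 genes. Chrnb4, the β4 subunit, was found in 769 of them at 2.82 counts per 10000, rank 669. Chrm2 averaged 0.855, Chrm1 0.616, Chrna5 0.415 and Chrnb2 0.286 counts per 10000. Chrna7 had 26 counts in 26 of the 777 neurons and Chrna4 had 14 counts in 13.

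The shares of cells with a count depend on depth. At 5000 counts per cell, Chrna3 was found in 74.1% of cluster 4, 85.4% of high-count cluster 3, 91.8% of cluster 1 and 95.8% of cluster 2. In the low-count cells of cluster 3, at their own median of 2658 counts, it was found in 25 of 53 cells (47.2%, 95% Clopper-Pearson interval 33.3% to 61.4%), with 45 counts in all. These cells also held transcripts of neurons, with Th in all 25 cells that had Chrna3 and in 26 of the 28 that did not. Dbh was in 25 and 19 of the same cells and Chrnb4 in 9 and 3, at a median of 3150 and 2534.5 counts. Stmn2 averaged 21.2 and 11.8 counts per 10000, endothelial Pecam1 2.67 and 4.32, and fibroblast Col1a1 1.59 and 0.358. A count of Chrna3 there is not read as expression, and its source was not tested. Chrnb4 was found in 12, Chrm2 in 6, Chrna5 in 3, Chrm1 in 2 and Chrnb2 in 1 of these 53 cells. Their Chrna3 level was 1.19, 4.34 and 0 counts per 10000 in Sets 1, 2 and 3, and 45 counts do not give it much precision.

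**Figure D1:**
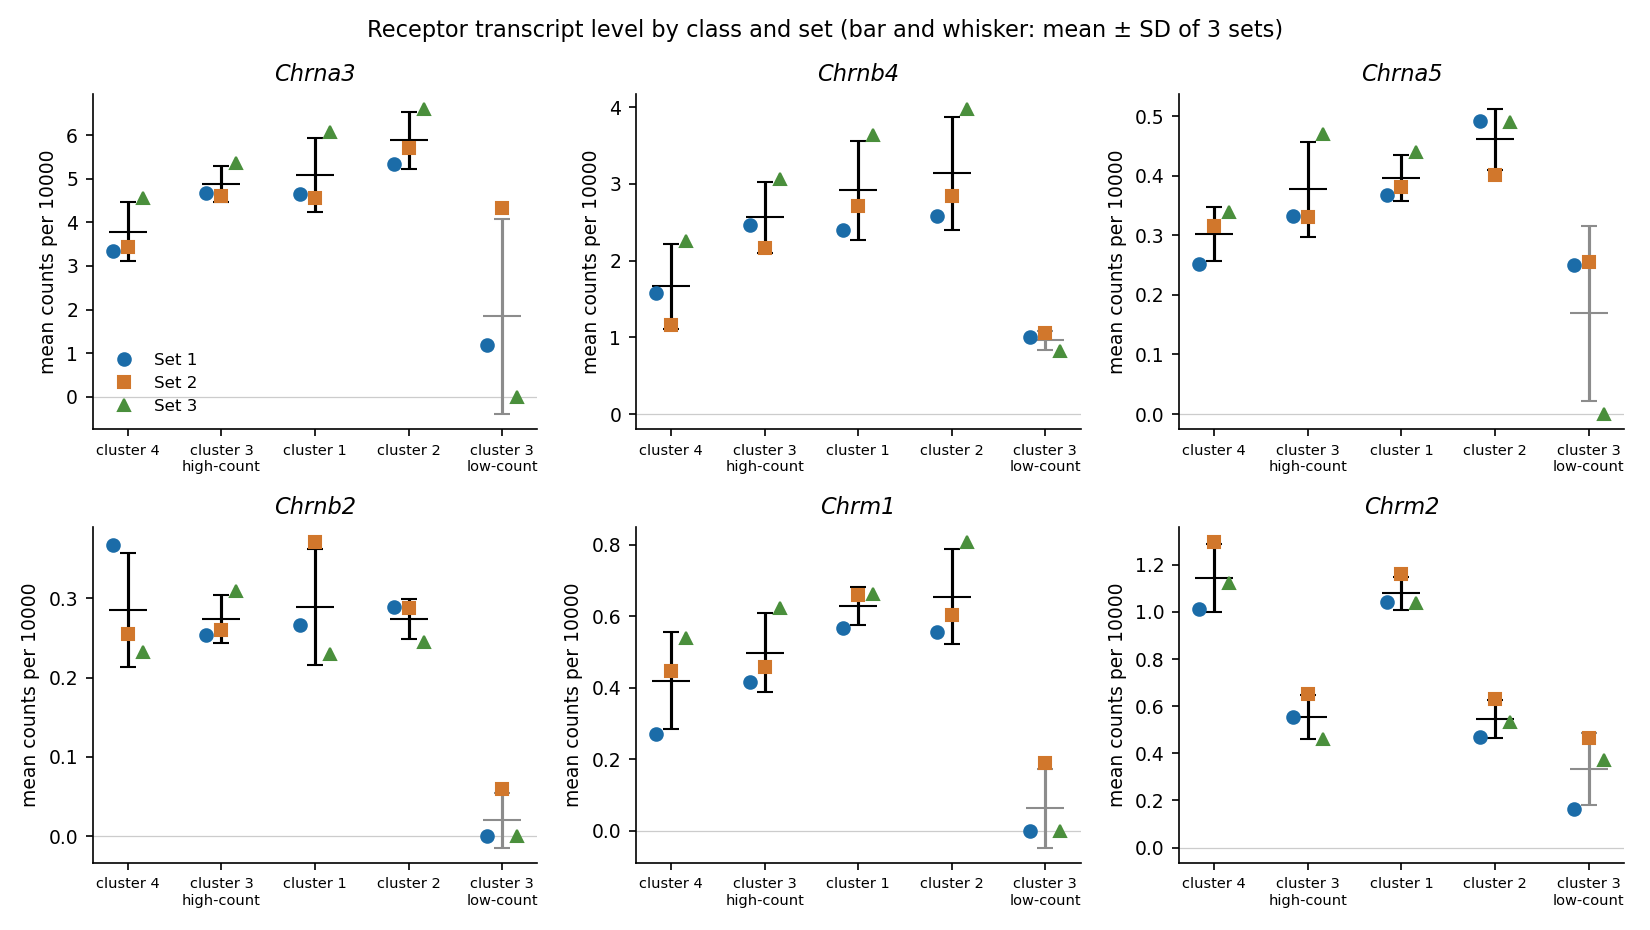
Mean counts per 10000 (y axis) of 6 receptor genes in 5 classes of cells (x axis), with a point for each of Sets 1, 2 and 3 and the mean ± SD over the 3 sets as a horizontal mark with whiskers. Cluster 4 has the lowest mean Chrna3 (3.78) and Chrnb4 (1.66) of the 4 neuron classes, and Chrm2 splits them into cluster 4 and cluster 1 (1.14 and 1.08) against high-count cluster 3 and cluster 2 (0.555 and 0.545).

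Cluster 4, the cholinergic-like neurons, had less of the ganglionic nicotinic subunits and of M1, and more M2, than the mean of clusters 1 and 2. Chrna3 was 31.3% lower, Chrnb4 45.3% lower, Chrm1 35.7% lower and Chrna5 29.3% lower as a mean over the sets, while Chrm2 was 1.41-fold ± 0.0587 (SD, n = 3) the level of clusters 1 and 2. Of 6 members tested, 5 passed at an adjusted p under 0.05 (limma, Benjamini-Hochberg over all genes), 1 higher and 4 lower. In this comparison 24.7% of 10564 genes passed, 12.4% higher and 12.3% lower. The median difference was -0.16 over the members and 0.00 over all genes, on the scale of mean log2(1 + counts per 10000). With 1 added before the log, a difference on this scale falls short of a log2 fold at low levels. It therefore does not order genes of unlike level.

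Chrna3 had 3.34, 3.44 and 4.56 counts per 10000 in Sets 1, 2 and 3 of cluster 4, against 4.64, 4.57 and 6.06 in cluster 1 and 5.34, 5.70 and 6.61 in cluster 2. Cluster 4 was lowest within every set, and its highest value, 4.56 in Set 3, came just under the lowest of cluster 1, 4.57 in Set 2. The difference of cluster 4 from clusters 1 and 2 was -0.44 ± 0.044 on the log2 scale (SE, 95% interval -0.54 to -0.35, adjusted p = 2.29e-06).

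Chrnb4 had 1.57, 1.16 and 2.26 counts per 10000 in cluster 4, against 2.39, 2.72 and 3.64 in cluster 1 and 2.58, 2.84 and 3.98 in cluster 2. All 3 sets of cluster 4 lay below all 6 values of clusters 1 and 2. The log2 difference was -0.60 ± 0.059 (SE, 95% interval -0.72 to -0.47, adjusted p = 2.14e-06). Both subunits fell in cluster 4 against cluster 1 alone, by 0.35 and 0.55, and against cluster 2 alone, by 0.54 and 0.65 on the log2 scale.

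Chrna5, the accessory α5 subunit, had 0.251, 0.316 and 0.340 counts per 10000 in cluster 4, against 0.369, 0.381 and 0.441 in cluster 1 and 0.492, 0.402 and 0.491 in cluster 2. The 3 values of cluster 4 lay below the other 6. Its difference was -0.12 ± 0.037 (SE, adjusted p = 0.0215). The call was lost with cells thinned to 15000 counts (adjusted p = 0.202), without Set 1 (0.151) and without Set 3 (0.0941).

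Chrnb2, the β2 subunit, had 0.367, 0.255 and 0.233 counts per 10000 in cluster 4, against 0.266, 0.371 and 0.230 in cluster 1 and 0.289, 0.288 and 0.245 in cluster 2. The groups overlap fully. The difference was 0.01 with a 95% interval of -0.07 to 0.09 (adjusted p = 0.892).

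Chrm1, the M1 receptor, had 0.272, 0.448 and 0.540 counts per 10000 in cluster 4, against 0.569, 0.659 and 0.662 in cluster 1 and 0.555, 0.604 and 0.807 in cluster 2. Each value of cluster 4 was below every value of the other 2 clusters. The difference was -0.19 ± 0.043 (SE, adjusted p = 0.0042), and it did not pass in cells thinned to 15000 counts (adjusted p = 0.108) or without Set 1 (0.0686).

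Chrm2, the M2 receptor, had 1.01, 1.30 and 1.12 counts per 10000 in cluster 4, against 1.04, 1.16 and 1.04 in cluster 1 and 0.471, 0.631 and 0.532 in cluster 2. The values of cluster 4 lie among those of cluster 1 and well above those of cluster 2. Against the mean of both, the difference was 0.24 ± 0.043 (SE, adjusted p = 0.000667). Set against each cluster alone, it was 0.44 against cluster 2 (95% interval 0.34 to 0.55, adjusted p = 1.13e-05) and 0.04 against cluster 1 (-0.06 to 0.15, adjusted p = 0.612). In these separate comparisons, added after the data were seen, 5 of 6 members passed against cluster 2, 1 higher and 4 lower, where 20.0% of all genes did (9.13% higher and 10.9% lower). Against cluster 1, 3 of 6 passed, all lower, where 21.3% did (9.49% lower). Of these, the Chrm1 call against cluster 1 was lost under 6 of 12 alternatives, among them without Set 1 (adjusted p = 0.192), without Set 2 (0.101) and in thinned cells (0.128). Against cluster 2, Chrm1 was lost under 3 of 12, without Set 1 (0.0842), in thinned cells (0.269) and without the set as a block (0.140). Chrna5 was lost there under 4 of 11, without Set 1 (0.136), without Set 3 (0.0664), in thinned cells (0.268) and without the block (0.0773). The comparisons of cluster 4 share its cells and those of clusters 1 and 2.

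**Figure D2:**
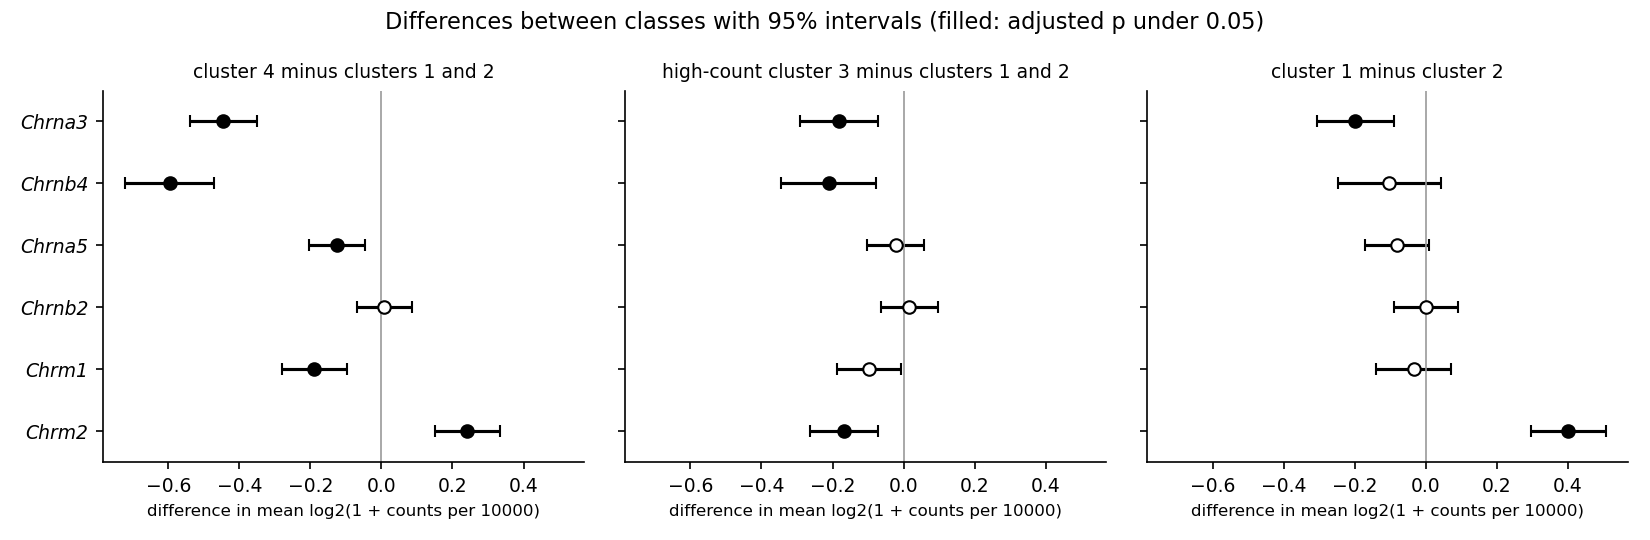
Difference in mean log2(1 + counts per 10000) between classes (x axis) for 6 receptor genes (rows), with 95% intervals from limma; filled points passed at an adjusted p under 0.05. Chrna3 and Chrnb4 lie furthest below 0 in the cluster 4 panel (-0.44 and -0.60), and Chrm2 lies furthest above 0 in the panel of cluster 1 minus cluster 2 (0.40). The scale compresses differences of genes at low levels.

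Summed glial markers, as given above, were higher in cluster 4 than in clusters 1 and 2 within every set. Of the 8 markers, all but Mbp had a higher mean level in cluster 4 than in both of these clusters. Mbp stood at 0.293 in cluster 4, 0.372 in cluster 1 and 0.205 in cluster 2. Apoe differed most, at 14.5 in cluster 4, 5.33 in cluster 1 and 7.73 in cluster 2. Without the 10% of neurons of each cluster richest in glial counts, the differences were -0.47 for Chrna3, -0.65 for Chrnb4, -0.14 for Chrna5, -0.20 for Chrm1 and 0.23 for Chrm2, and all 5 calls held.

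The balance of subunits was also set out as shares of all counts of the 6 nicotinic genes. Chrna3 made up 63.4% ± 2.59 of them in cluster 4, 60.4% ± 2.36 in high-count cluster 3, 58.9% ± 1.48 in cluster 1 and 60.5% ± 1.60 in cluster 2 (SD, n = 3 sets each). Chrnb4 made up 26.5% ± 4.87, 31.7% ± 2.23, 33.1% ± 1.76 and 31.8% ± 2.72 in the same classes, and Chrna5 4.70%, 4.53%, 4.43% and 4.67%. The ratio of Chrnb4 to Chrna3 was 0.411, 0.333 and 0.519 in Sets 1, 2 and 3 of cluster 4, against 0.516, 0.582 and 0.588 in cluster 1 and 0.485, 0.50 and 0.594 in cluster 2. Cluster 4 had the lowest ratio within each set, but its Set 3 overlaps the other clusters, and no test was made of the ratio. The ratio of Chrna5 to Chrna3 was 0.074 ± 0.007 in cluster 4, 0.075 ± 0.012 in high-count cluster 3, 0.075 ± 0.004 in cluster 1 and 0.077 ± 0.010 in cluster 2.

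Between the noradrenergic clusters, Chrm2 was the receptor that stood apart, at 2.00-fold ± 0.191 (SD, n = 3) in cluster 1 relative to cluster 2. The 3 values of cluster 1, 1.04 to 1.16 counts per 10000, do not overlap the 3 of cluster 2, 0.471 to 0.631. The log2 difference was 0.40 ± 0.050 (SE, 95% interval 0.30 to 0.51, adjusted p = 5.85e-05), and it passed under each of 12 alternative settings, at 0.39 to 1.02. Of 6 members tested, 2 passed, 1 higher and 1 lower, where 8.86% of all genes did (3.59% higher and 5.27% lower). The second was Chrna3, 13.7% lower in cluster 1, with a log2 difference of -0.20 ± 0.051 (SE, adjusted p = 0.0225). It was below cluster 2 in each set, but the call was lost under 7 of 12 alternatives, with an adjusted p of 0.155 without Set 1, 0.285 without Set 2 and 0.153 in cells thinned to 15000 counts. Chrnb4 (-0.10, 95% interval -0.25 to 0.04), Chrna5 (-0.08, -0.17 to 0.01), Chrnb2 (0.00, -0.09 to 0.09) and Chrm1 (-0.03, -0.14 to 0.07) did not pass.

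In single neurons the M1 and M2 genes combined differently by class. In neurons thinned to 15000 counts, more Chrm2 than Chrm1 was counted in 35 of 53 cells of cluster 4 (66.0%), 17 of 48 of high-count cluster 3 (35.4%), 192 of 367 of cluster 1 (52.3%) and 96 of 323 of cluster 2 (29.7%). Over Sets 1, 2 and 3 the share was 75.0%, 69.6% and 55.6% in cluster 4, 49.3%, 57.1% and 50.0% in cluster 1, and 27.9%, 31.1% and 30.9% in cluster 2. Both genes were counted in the same cell in 35.8% of cluster 4, 27.1% of high-count cluster 3, 47.4% of cluster 1 and 31.0% of cluster 2. Neither was counted in 9.43%, 8.33%, 9.81% and 22.9% of the same classes. Across cells, the correlation of Chrm1 with Chrm2 was 0.00 in cluster 1 (388 cells) and 0.07 in cluster 2 (335 cells), values too weak to read in counts this sparse.

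**Figure D3:**
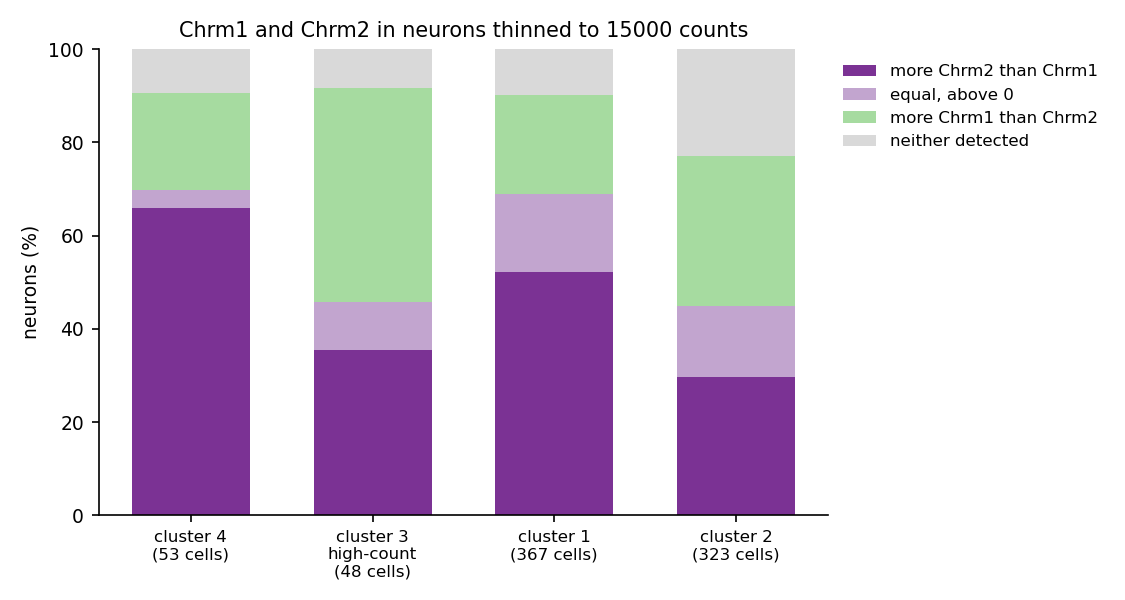
Percent of neurons (y axis) in each of 4 states of Chrm1 and Chrm2 for 4 classes (x axis), after every cell was thinned to 15000 counts. Cells with more Chrm2 than Chrm1 form 66.0% of cluster 4 and 52.3% of cluster 1, against 35.4% of high-count cluster 3 and 29.7% of cluster 2.

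An annotated non-coding RNA on the opposite strand, 9330158H04Rik, has exons that overlap those of Chrm2. It averaged 1.25 ± 0.0442 counts per 10000 in cluster 4, 0.806 ± 0.281 in high-count cluster 3, 1.49 ± 0.150 in cluster 1 and 0.682 ± 0.0387 in cluster 2 (SD, n = 3). If the counting did not use strand, reads in the overlap could belong to either gene, and the part of this in the Chrm2 values was not tested.

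The high-count cells of cluster 3 had slightly less Chrna3 and Chrnb4, as means over cells, than the mean of clusters 1 and 2, and a Chrm2 level whose range includes that of cluster 2. Chrna3 had 4.67, 4.62 and 5.36 counts per 10000 in Sets 1, 2 and 3, Chrnb4 had 2.47, 2.16 and 3.06, and Chrm2 had 0.552, 0.651 and 0.462. Against the mean of clusters 1 and 2, 3 of 6 members passed, all lower, where 15.8% of 10525 genes passed (10.8% higher and 5.03% lower). Chrna3 differed by -0.18 ± 0.052 (SE, adjusted p = 0.0215), Chrnb4 by -0.21 ± 0.064 (adjusted p = 0.0282) and Chrm2 by -0.17 ± 0.046 (adjusted p = 0.0158). Chrm1, at 0.416, 0.458 and 0.623, differed by -0.10 (95% interval -0.19 to -0.01, adjusted p = 0.145), Chrna5 by -0.02 (-0.10 to 0.06) and Chrnb2 by 0.02 (-0.06 to 0.10). All 3 calls were lost in cells thinned to 15000 counts, with adjusted p of 0.092 for Chrna3, 0.242 for Chrnb4 and 0.112 for Chrm2. The median cell had 4.87 counts of Chrna3 per 10000 in high-count cluster 3, against 4.77 in cluster 1 and 5.58 in cluster 2, and 2.77 counts of Chrnb4, against 2.63 and 2.92 in the same clusters. The 3 calls were also lost without Set 2 (0.126, 0.184 and 0.126 for the same genes) and without Set 3 (0.190, 0.338 and 0.132).

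Within high-count cluster 3, whose means include a few cells with little Chrna3, Chrna3 and Chrnb4 varied together from cell to cell. The lowest 8 of 48 cells had 0.576 to 2.70 counts of Chrna3 per 10000 and the ninth had 3.90, a gap noticed after the values were seen. Of these 8 cells, 2 came from Set 1, 3 from Set 2 and 3 from Set 3, and their Chrnb4 ranged from 0 to 2.54 counts per 10000 although all but 1 of them, which had 18608 counts, held 52105 to 86844. The correlation of the 2 genes over the 48 cells was 0.81, and 0.64, 0.78 and 0.88 within Sets 1, 2 and 3. Thinned to 15000 counts it was 0.56. The same correlation was 0.30 in cluster 4 (54 cells), 0.26 in cluster 1 and 0.16 in cluster 2, and 0.29, 0.19 and 0.00 after thinning. Cells of a set share animals and plates, so these are descriptions. Chrna3 below 3 counts per 10000 was found in 25.9% of cells in cluster 4, 16.7% of high-count cluster 3, 12.4% of cluster 1 and 2.09% of cluster 2, at unequal depth.

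**Figure D4:**
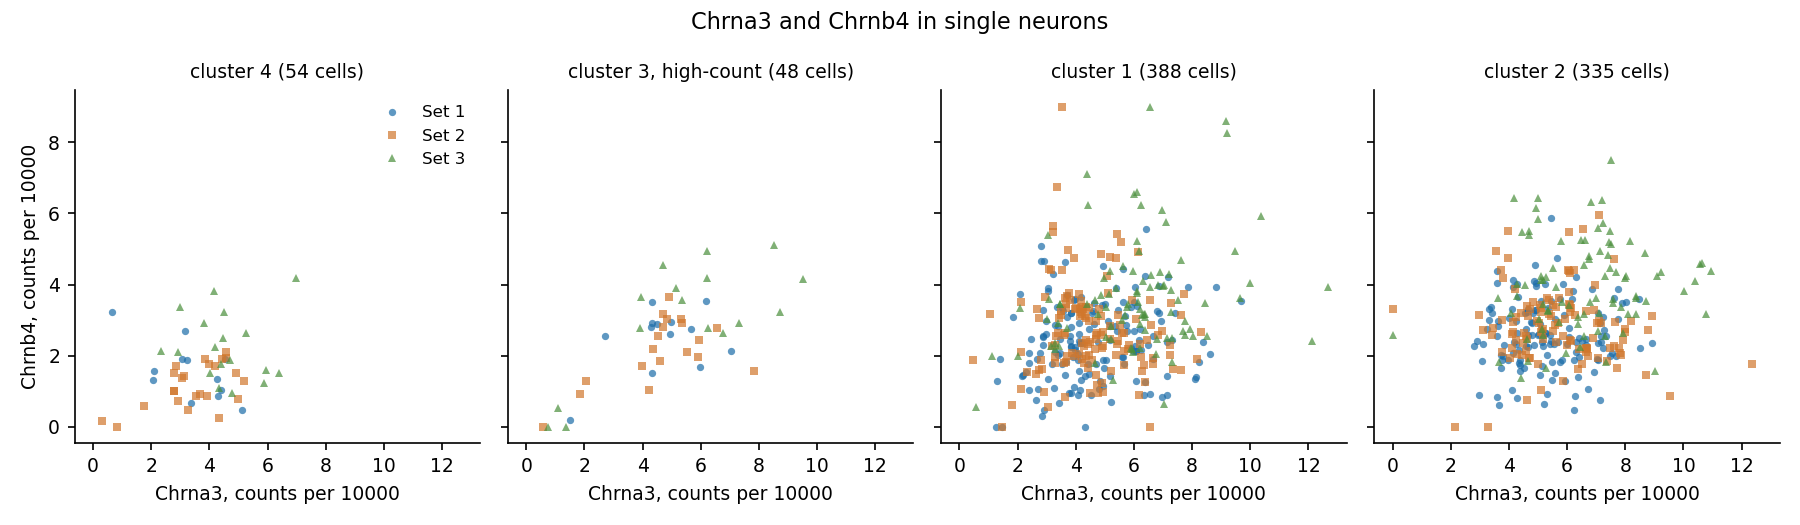
Chrnb4 (y axis) against Chrna3 (x axis) in counts per 10000 for each cell of 4 classes, with colour and shape giving the set. In high-count cluster 3 the 8 cells under 3 counts of Chrna3 per 10000 lie apart from the rest on the Chrna3 axis, with Chrnb4 from 0 to 2.54, and cluster 4 reaches at most 4.19 for Chrnb4 against 9.01 in cluster 1.

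Counted together at 15000 counts per cell, Chrna3 and Chrnb4 were both found in 45 of 53 neurons of cluster 4 (84.9%), 43 of 48 of high-count cluster 3 (89.6%), 358 of 367 of cluster 1 (97.5%) and 321 of 323 of cluster 2 (99.4%). Chrna5 was found with both in 30.2%, 41.7%, 46.3% and 46.7% of the same classes, and Chrnb2 with both in 22.6%, 37.5%, 34.3% and 32.8%. Since single counts decide these shares, a cell without a count of Chrna5 or Chrnb2 may still have held the transcript.

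Chrna7 and Chrna4 were under the mean of 0.05 counts per 10000 required for a test. Chrna7 had 1 count in cluster 4, 0 in high-count cluster 3, 19 in cluster 1 and 6 in cluster 2, never more than 1 per cell. Its 0 of 48 cells in high-count cluster 3 allows a share of up to 6.25%, against 4.90% in cluster 1, at unequal depth. Over all counts of a class, 0 of 3348662 counts in high-count cluster 3 allows up to 0.00896 counts per 10000 (3 counts). Its 95% exact Poisson interval reaches 0.0110. Cluster 1 had 0.0167 counts per 10000 (95% exact Poisson interval 0.0101 to 0.0261), so the exact intervals of these classes overlap. These limits cover counting error only, and the difference was not tested over sets. Chrna4, which pairs with β2 in the brain, had 4 counts in 54 cells of cluster 4, 1 in high-count cluster 3, 3 in the 388 cells of cluster 1 and 7 in cluster 2. All its counts came from Sets 1 and 2.

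Set 3 had the highest Chrna3 and Chrnb4 of the 3 sets in all 4 classes of neuron. Over all neurons of clusters 1, 2 and 4, Chrnb4 was 3.47 to 3.78 counts per 10000 in the 3 plates of Set 3, against 2.38 to 2.51 in the 4 plates of Set 1 and 2.36 to 2.92 in the 4 of Set 2. Chrna3 was 5.67 to 6.49 in Set 3, 4.67 to 5.37 in Set 1 and 4.41 to 5.49 in Set 2. Chrm2 did not keep this order, at 0.664 to 0.947, 0.663 to 0.859 and 0.769 to 1.09. The set is the animal pool and also its own plates, which cannot be told apart, and the class comparisons above are made within sets.

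**Figure D5:**
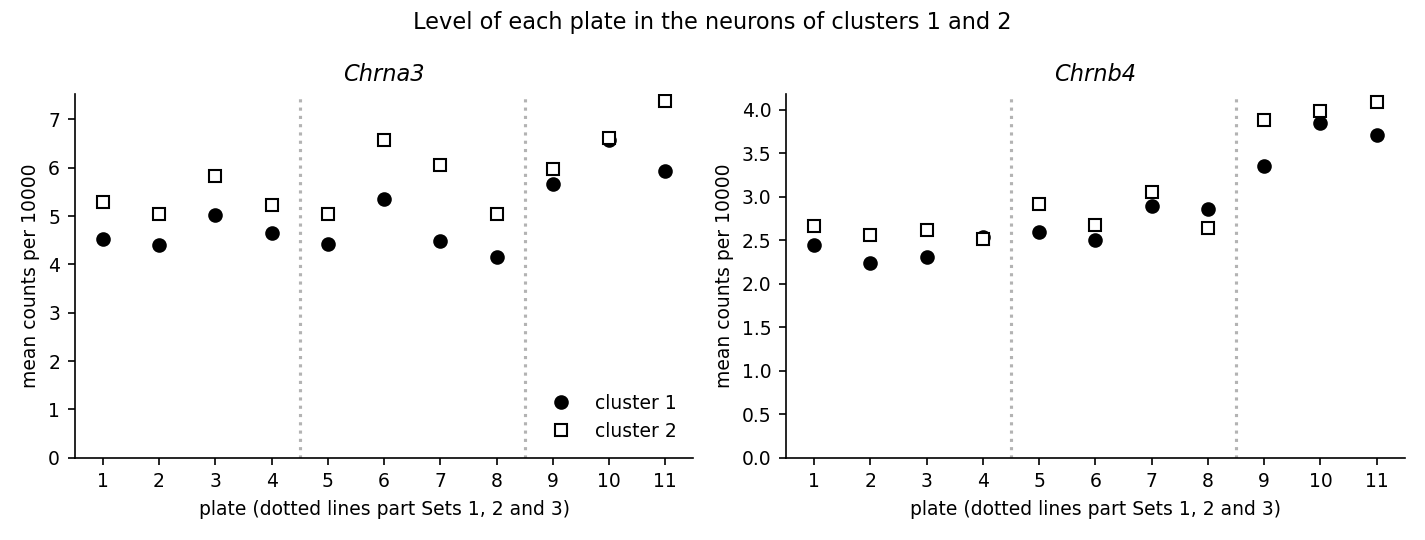
Mean counts per 10000 (y axis) of Chrna3 and Chrnb4 in the neurons of cluster 1 (filled) and cluster 2 (open) on each of the 11 plates (x axis), in the order of Sets 1, 2 and 3. For Chrnb4 the 3 plates of Set 3 lie at 3.35 to 4.09, above the 8 plates of the other sets, while cluster 1 lies below cluster 2 for Chrna3 on every plate.

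The genes whose pattern was most like each member's were ranked by Pearson r among 3356 genes. Over the 12 means of set and class, Chrna3 was closest to Cyb561, an electron carrier of amine vesicles (0.957), Scn2b, a sodium channel subunit (0.955), and Tspan3, a tetraspanin (0.952). Among the genes closest to Chrnb4 were Chrna3 (0.949) and Cyb561 (0.938). Chrm1 was closest to Cers4, March11 and Pfkl (0.886 to 0.920). Chrm2 was closest to Nefm, a neurofilament gene (0.945), Prune2 (0.940) and Nrp1, a semaphorin co-receptor (0.914). Nefm averaged 3.74 ± 0.213 counts per 10000 in cluster 4, 1.56 ± 0.221 in high-count cluster 3, 3.00 ± 0.122 in cluster 1 and 1.54 ± 0.0759 in cluster 2, the same split as Chrm2. The 12 points share sets and clusters, and differences between sets were not removed, so these values mix patterns of class and of set.

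Over 723 single cells of clusters 1 and 2, each centred within its cluster and set, the closest genes were weaker matches. For Chrna3 they were Slc31a1, a copper importer (0.327), Ddc, which makes dopamine (0.270), and Slc6a2, the noradrenaline transporter (0.269). For Chrnb4 they were Stmn2, Tagln3 and Gch1 (0.227 to 0.242), for Chrm2 Prune2, Epha5 and Bub3 (0.176 to 0.220), and for Chrm1 Tmbim6, Sgsm2 and Wdr47 (0.144 to 0.165).

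Among other receptor genes of the same families, 4 of 10 further nicotinic subunits were in the table and were close to absent: Chrna1 had 143 counts in 777 neurons, Chrnb1 17, Chrna2 6 and Chrng 2. The 3 remaining muscarinic genes were not analysed here. Of 7 tested genes for nicotinic chaperones and Ly6 regulators, 2 were higher and 1 lower in cluster 4 than in clusters 1 and 2, with a median of 0.05. Over all genes, 12.4% were higher and 12.3% lower in that comparison. The shares were 10.8% and 5.03% in high-count cluster 3, and 3.59% and 5.27% in cluster 1 against cluster 2. Counts in this list and the lists below stand beside these shares and were not tested against them. Lynx1, a membrane-anchored protein that dampens nicotinic receptors, averaged 2.03 ± 0.300 counts per 10000 in cluster 4, 1.60 ± 0.0780 in high-count cluster 3, 0.446 ± 0.018 in cluster 1 and 1.24 ± 0.109 in cluster 2. It rose in cluster 4 (0.72, adjusted p = 3.96e-07) and in high-count cluster 3 (0.56, adjusted p = 5.84e-07), and was lower in cluster 1 than in cluster 2 (-0.62, adjusted p = 2.2e-05). Ly6e rose in cluster 4 by 0.62 (adjusted p = 2.99e-07) and was lower in cluster 1 than in cluster 2 (-0.40, adjusted p = 0.00031), and it stood at 28.7 in the low-count cells. Tmem35a, the nicotinic receptor chaperone NACHO, fell in cluster 4 by 0.38 (adjusted p = 9.13e-06). It averaged 0.186 ± 0.021 counts per 10000 there, against 0.648 ± 0.054 in cluster 1 and 0.522 ± 0.127 in cluster 2. In high-count cluster 3, 3 of the 7 were higher: Lynx1, the scaffold gene Rapsn (0.17) and the chaperone gene Ric3 (0.18), the last 2 with adjusted p of 0.00303 and 0.0103, and neither held in thinned cells (0.449 and 0.0534). Rapsn also lost the call without Set 1 (0.0713) and without Set 2 (0.170), and Ric3 without Set 3 (0.185). Between clusters 1 and 2, 2 of the 7 were lower, Lynx1 and Ly6e.

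For acetylcholine breakdown, 3 genes were tested and all passed in cluster 4, 2 higher and 1 lower, where 24.7% of all genes passed. Prima1, which anchors acetylcholinesterase in neuronal membranes, averaged 0.920 ± 0.129 counts per 10000 in cluster 4, against 0.033 ± 0.013 in cluster 1 and 0.099 ± 0.028 in cluster 2, a log2 difference of 0.75 (adjusted p = 3.49e-10). Colq, its collagen anchor, differed by 0.17 (adjusted p = 0.00973) and lost the call without the glia-rich neurons (0.154), without Set 2 (0.0805) and without Set 3 (0.0728). Colq averaged 0.585 ± 0.216 counts per 10000 in cluster 4, above cluster 1 but not above cluster 2. Ache, the enzyme itself, differed by -0.17 (adjusted p = 0.0203) and lost the call without Set 1 (0.224) and without Set 2 (0.118). Colq was lower in cluster 1 than in cluster 2 (-0.56, adjusted p = 2.54e-06), at 0.047 ± 0.022 against 0.610 ± 0.193 counts per 10000, the 1 gene of 3 that passed there. In high-count cluster 3, Colq was higher than the mean of clusters 1 and 2 (0.35, adjusted p = 1.15e-05) and Ache lower (-0.27, adjusted p = 0.000551). Colq averaged 0.707 ± 0.173 counts per 10000 there, against 0.610 ± 0.193 in cluster 2.

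Of 14 tested genes of M1 signalling, 2 were higher and 6 lower in cluster 4, where 12.4% and 12.3% of all genes were. Their median was -0.11, against 0.00 over all genes. Prkca, protein kinase C α, fell by 0.72 (adjusted p = 6.12e-09) and Plcb4, a phospholipase C driven by Gq, by 0.49 (adjusted p = 7.82e-07). Rgs2, which limits Gq signalling, rose by 0.62 (adjusted p = 8.57e-09). Rgs4 differed by -0.58 (adjusted p = 1.11e-06), but on summed counts with voom weights its adjusted p was 0.488. Kcnq3, a subunit of the M-type potassium channel, was named after its values were seen: it was lower, with a log2 difference of -0.43 (adjusted p = 3.9e-05). Between clusters 1 and 2, 2 of the 14 were higher in cluster 1, Plcb4 (0.67, adjusted p = 4.26e-07) and Prkcb (0.26, adjusted p = 0.00525, or 0.170 without Set 2), and 2 were lower, Rgs8 (-0.30, adjusted p = 1.51e-05) and Prkca (-0.35, adjusted p = 0.000163). In high-count cluster 3, 2 of 13 were higher, Rgs4 (0.94, adjusted p = 2.7e-08) and Rgs2 (0.16, adjusted p = 0.00922, or 0.187 without Set 2), and Plcb4 was lower (-0.67, adjusted p = 2.87e-09). Plcb4 averaged 0.876 ± 0.224 counts per 10000 in cluster 4, 0.652 ± 0.109 in high-count cluster 3, 2.32 ± 0.332 in cluster 1 and 1.08 ± 0.182 in cluster 2.

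Of 15 tested genes of M2 signalling, 3 were higher and 4 lower in cluster 4, where 12.4% and 12.3% of all genes were. Their median was -0.04. The higher ones were Rgs6, which shortens Gi/o signals (0.40, adjusted p = 2.12e-08), Adcy5, an adenylyl cyclase (0.14, adjusted p = 3.74e-05), and Kcnj3, a subunit of the inward rectifier opened by M2 (0.16, adjusted p = 0.000203). Grk3, a receptor kinase, fell by 0.37 (adjusted p = 2.01e-05). Kcnj3 was lower in cluster 1 than in cluster 2 (-0.15, adjusted p = 0.00288), as were Adcy1 (-0.24, adjusted p = 0.00013) and Rgs7 (-0.38, adjusted p = 0.000243). The Kcnj3 call was lost in thinned cells (0.120), without the set as a block (0.115) and without Set 2 (0.0601). None of the 15 was higher, where 3.59% of all genes were higher and 5.27% lower. Chrm2 and Kcnj3 differed in opposite directions: Kcnj3 averaged 0.041 ± 0.022 counts per 10000 in cluster 1 and 0.168 ± 0.061 in cluster 2. Kcnj9, another Kcnj gene of the list, was not tested and went the way of Chrm2, at 0.0454 in cluster 1 and 0.0059 in cluster 2. In high-count cluster 3, 2 of 14 were higher, Kcnj3 (0.18, adjusted p = 0.000624) and Gng3 (0.21, adjusted p = 0.00154), and none was lower. Gng3 lost the call in thinned cells (0.0872), and with cluster 3 split at 5000 counts its difference was -0.0056 (0.982).

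Among other fast receptors in cluster 4, of 8 tested, 4 were higher and 1 lower, where 12.4% and 12.3% of all genes were. Their median was 0.10. Htr3a and Htr3b, which form the serotonin-gated channel of the same pentameric family, differed most. Htr3a averaged 20.1 ± 6.14 counts per 10000 in cluster 4, 3.11 ± 0.749 in high-count cluster 3, 2.71 ± 0.398 in cluster 1 and 2.47 ± 0.757 in cluster 2, a log2 difference of 2.77 ± 0.188 for cluster 4 (SE, adjusted p = 0.000284). Htr3b rose by 0.88 (adjusted p = 4.76e-08) and P2rx2, an ATP-gated channel, by 0.16 (adjusted p = 0.001), while the glutamate receptor gene Gria2 fell by 0.57 (adjusted p = 1.09e-06). Between clusters 1 and 2, Htr3b was higher (0.25, adjusted p = 0.038) and Gria2 lower (-0.23, adjusted p = 0.0251) in cluster 1, and neither held without any 1 of the sets, with adjusted p of 0.303, 0.130 and 0.0609 for Htr3b and 0.214, 0.134 and 0.0698 for Gria2 without Sets 1, 2 and 3. In high-count cluster 3, 1 of 8 passed, P2rx4, which was higher (0.31, adjusted p = 9.87e-05).

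None of the genes listed as neighbours of the receptor cluster passed, and neither did most genes. Of all genes, 24.7% passed for cluster 4, 8.86% between clusters 1 and 2, and 15.8% for high-count cluster 3. Psma4, 22849 bases before Chrna5, averaged 1.86 ± 0.204 counts per 10000 in cluster 4, 2.07 ± 0.317 in high-count cluster 3, 2.03 ± 0.183 in cluster 1 and 1.84 ± 0.172 in cluster 2. Of 5 listed neighbours 3 were tested, Ireb2, Psma4 and Morf4l1, and this held in all 3 comparisons, with medians of -0.01 for cluster 4, 0.01 between clusters 1 and 2, and 0.07 for high-count cluster 3. Morf4l1 is 35.0 Mb from Chrnb4 in the mouse and so is no neighbour there. Adamts7, which was not tested, lies beyond Morf4l1 at chr9:90163069-90208071 and is no neighbour either.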

How the data were processed

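Single-cell libraries of 11 plates were aligned with STAR 2.5.3a and counted with featureCounts 1.5.3 on GRCm38, with SAMtools 1.4.1 and Seurat, per the submitters' processing notes. The deposited table holds natural log values, ln(1 + counts per 10000), for 878 cells; all non-zero values gave whole counts within 0.001. Cells held 1536 to 107665 counts (median 32923.5) and plates 2050165 to 3373157. The 96 well barcodes recur between plates, so cells were told apart by plate and barcode. No doublet caller was run. The sort record of 1039 wells was not used, because wells could not be tied to cells; tracer groups were not analysed here.

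Because the deposited unit is logged, limma 3.58.1 (R 4.3.3; trend, robust) was fitted to the mean of log2(1 + counts per 10000) per set and cluster, with set as a block and Benjamini-Hochberg adjustment over all genes with a mean of at least 0.05. Clusters 1, 2 and 4 were fitted together, and high-count cluster 3 was added for its own comparison. Sets pair the columns since the clusters of a set share ganglia and plates, which cannot be told apart. Deviations correlated at 0.555 to 0.866 within sets and -0.72 to 0.00171 between sets. Deviations of 3 sets sum to 0, which in itself pushes the values between sets below 0. The labels name pools of animals, so p-values measure the spread of 3 pools. Intervals and limits for shares cover counting error only, at 95%, with a limit of 3 counts for a count of 0. Cells were thinned with a fixed seed to 15000 or 5000 counts. Descriptions used Python 3.11.15 with scipy 1.17.1, pandas 2.3.3 and numpy 2.4.6, plots used matplotlib 3.10.9, and the fit was tested on simulated data.

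The members and lists were chosen with earlier results of these data known. Up to 4 passing genes per list, by smallest p, and the 3 genes most like each member (mean of at least 0.5) are named, except for a gene that is not reported here. Alternatives covered the block, thinning, summed counts with median-of-ratios size factors or voom weights, the pseudocount, the filter, glia-rich neurons, each set, the split of cluster 3 and the clusters in the model.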

Additional observations from a re-analysis of the deposited data

How the results depend on the processing

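For cluster 4 against the mean of clusters 1 and 2, Chrna3, Chrnb4 and Chrm2 kept their direction and passed under all 12 alternatives, and for cluster 1 against cluster 2 so did Chrm2. Without the replicate block, which sets aside the pairing by ganglion pool, the adjusted p was 0.0311 for Chrna3, 0.0220 for Chrnb4 and 0.0312 for Chrm2 in cluster 4, and 0.00889 for Chrm2 between clusters 1 and 2, while Chrm1 (0.0926) and Chrna5 (0.105) in cluster 4, Chrna3 between clusters 1 and 2 (0.933) and all 3 receptor calls of high-count cluster 3 (0.194 to 0.556) were lost. Against cluster 1 alone, Chrna3 (0.173) and Chrnb4 (0.0747) in cluster 4 were lost as well. The Chrm1 difference of high-count cluster 3 passed with voom weights (-0.39, adjusted p = 0.0295), and so did Chrna5 in cluster 4 against cluster 1 on summed counts scaled by median-of-ratios size factors (-0.44, adjusted p = 0.0484), a setting that changes both the summing and the scaling. Gng3 in high-count cluster 3 changed sign with the split at 5000 counts, to -0.0056.

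The number of genes called, 2608 for cluster 4, was 1118 without the replicate block and 1328 with the stricter filter. For cluster 1 against cluster 2 it was 936, but 282 without the block, 502 in thinned cells, 2469 with voom weights and 423 to 561 with a set left out. For high-count cluster 3 it was 1666, but 470 without the block, 742 in thinned cells, 3098 with a pseudocount of 0.1, 1020 with no filter and 835 to 1049 with a set left out. For cluster 4 against cluster 1 it was 2254, but 920 without the block, 1456 in thinned cells, 1243 with the stricter filter and 1473 to 1519 with a set left out. For cluster 4 against cluster 2 it was 2111, but 831, 1378, 1201 and 1326 to 1462 under the same settings. On summed counts with those size factors, 483 genes were higher and 452 lower in cluster 1 than in cluster 2, against 379 and 557 in the fit as reported, and 651 were higher and 570 lower in high-count cluster 3, against 1137 and 529 in the fit as reported. A pseudocount of 0.1 gave 2692 and 406 there and shifted the median of all genes to 0.18. The cause of these changes was not tested. At this depth, shares of cells with a count moved in 20 of 24 cases when cells were thinned to 15000 counts, so Chrna5, Chrnb2, Chrna7 and Chrna4 cannot be called absent from a cell.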
